A study of Mus musculus with 8 samples.

Results

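Nobox, Figla, Sohlh1, Sohlh2, Lhx8, Taf4b, Foxo3 and Kit are genes of the early oocyte, and Kitl encodes the ligand of Kit. The transcripts of all 9 were compared in fully grown oocytes with and without Dicer. Every probe set whose platform annotation gives 1 of these 9 symbols, and no other, was kept. This gave 17 of the 45037 probe sets that are not controls, and 9 of 18193 genes with a probe set of their own. Nobox, Figla, Sohlh1, Sohlh2 and Lhx8 had 1 probe set each, Kit had 2, Taf4b and Foxo3 had 3 each, and Kitl had 4. The oocytes were germinal vesicle-intact, the stage before meiosis resumes, and came from eCG-primed females of strain 129/C57BL6 labelled wild-type or Dicer knockout, with attached cumulus cells removed by pipetting. RNA of 20 oocytes per mouse went onto 1 Affymetrix mouse array, for 4 wild-type and 4 knockout mice. The labels name neither the deleted exons, the driver of the deletion nor the age of the females. The 20 oocytes of a mouse were pooled, so a change in every oocyte and a change in some of them give the same signal.

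These genes act in sequence while the pool of follicles is laid down and starts to grow. Sohlh1 and Sohlh2 are germ cell-specific bHLH factors that pair with each other, Figla is a bHLH factor that drives the zona pellucida genes, Nobox and Lhx8 are homeobox factors needed for the oocyte to outlive the primordial stage, and Taf4b is a gonad-enriched subunit of the general transcription factor TFIID. Kit is the receptor tyrosine kinase of the oocyte surface, Kitl is its ligand, made by granulosa cells, and signalling from Kit through PI3K moves Foxo3, a brake on the waking of primordial follicles, out of the nucleus. Dicer is the RNase that produces mature microRNAs and siRNAs, and the question put to these genes is whether their transcripts differ in samples of oocytes that lack it.

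The promoters of Sohlh2, Kit and Figla, whose transcripts passed the test, and of Sohlh1 as the partner of Sohlh2, are shown to let the bHLH binding element be seen. RefSeq promoter windows of 300 bases (250 before the start and 50 after it, build GRCm38.p6) were used for 8 of the 9 genes, all but Taf4b. Capitals mark the E-box CANNTG, read on both strands, and the 250 bases before the start are printed for Sohlh1, Sohlh2 and Kit and a stretch of 30 bases for Figla.
Sohlh1 (chr2:25847249-25847498, - strand): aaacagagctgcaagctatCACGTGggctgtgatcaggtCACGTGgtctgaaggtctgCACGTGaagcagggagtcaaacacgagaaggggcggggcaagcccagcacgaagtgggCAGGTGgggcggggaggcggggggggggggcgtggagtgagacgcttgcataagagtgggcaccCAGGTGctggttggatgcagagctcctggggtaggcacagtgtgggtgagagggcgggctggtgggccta
Sohlh2 (chr3:55181794-55182043, + strand): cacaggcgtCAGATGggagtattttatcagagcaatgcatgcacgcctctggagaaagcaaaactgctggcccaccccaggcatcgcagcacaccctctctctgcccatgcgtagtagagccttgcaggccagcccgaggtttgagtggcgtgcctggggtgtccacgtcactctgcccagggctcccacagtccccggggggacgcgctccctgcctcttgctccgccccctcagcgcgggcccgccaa
Kit (chr5:75574737-75574986, + strand): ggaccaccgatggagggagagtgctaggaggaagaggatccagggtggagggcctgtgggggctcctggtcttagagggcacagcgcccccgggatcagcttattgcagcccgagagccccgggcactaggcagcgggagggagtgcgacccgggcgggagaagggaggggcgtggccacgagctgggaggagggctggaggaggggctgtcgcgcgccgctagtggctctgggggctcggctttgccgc
Figla (chr6:86017015-86017044, + strand): actCAGGTGcgtCAAGTGtgtcacagttaa
The Sohlh1 window held 5 E-boxes, of which 3 read CACGTG. The Figla window held 4, of which the 2 before the start are printed, and the Nobox window 2. Sohlh2, Kit and Kitl had 1 each, and those of Kit and Kitl lay after the start. The Lhx8 and Foxo3 windows had 0 E-boxes. Of all 32851 windows in the RefSeq table, 72.3% held an E-box. The Nobox element TAATTG or TAATTA (12.4% of all windows), the Lhx8 element TGATTG (14%) and the Foxo element GTAAACA (3.65%) had 0 matches in the 8 windows, on both strands. These matches describe letters in a window and were not tested for binding.

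Array medians lay between 6.35 and 6.43 on the log2 scale, and pairs of arrays correlated across probe sets at r = 0.9915 to 0.9947 within groups and 0.9797 to 0.9865 between them. Both Dicer1 probe sets were higher on the knockout arrays (13.04 to 13.31 against 14.26 to 14.36, and 11.39 to 11.79 against 12.11 to 12.38), and as the deleted exons are not named they do not check the genotype. Of 13 measured oocyte markers, Zar1, H1f8, Dppa3 and Ooep fell and Ddx4 rose (Dppa3 and Ooep named after their values were seen). In limma 38.5% of the markers passed at an adjusted p under 0.05, against 21% of all genes by their brightest probe set. The summed linear signal of the 13 was 192737 to 203545 in wild type and 183504 to 194053 in knockout. The 3′ minus 5′ signal of the actin control had a wild-type mean of 2.32 ± 0.274 log2 and a knockout mean of 2.14 ± 0.145 (SD, 4 arrays each, exact two-sided permutation p = 0.257). That of the Gapdh control was 2.96 ± 0.0817 and 2.82 ± 0.153 (exact two-sided permutation p = 0.143). Wild-type array 1 had the lowest array weight, 0.718. Per the labels, each array holds RNA of 1 mouse.

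Sohlh2 rose, Figla and the brighter Kit probe set fell, and the dimmest Taf4b probe set rose slightly, while Nobox, Lhx8, Sohlh1, Foxo3 and Kitl did not pass the test. With limma and an adjusted p under 0.05 counted as passing, 2 of 17 probe sets were higher and 2 lower in knockout, together 23.5%. Over all 45037 probe sets 16.1% passed, 6.82% higher and 9.31% lower. The share among the 17 therefore lies near that of the whole array, and nothing particular to these genes as a group is read from it. Their median difference was -0.0474 log2, against 0.0163 for all probe sets. In 5 of 17 (29.4%) the 4 knockout values lay on one side of the 4 wild-type values, against 21.2% of all probe sets. Each of those 5 had an exact two-sided permutation p of 0.0286, the smallest that 4 against 4 arrays allow, which became 0.0971 after Benjamini-Hochberg adjustment over the 17.

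**Figure D1:**
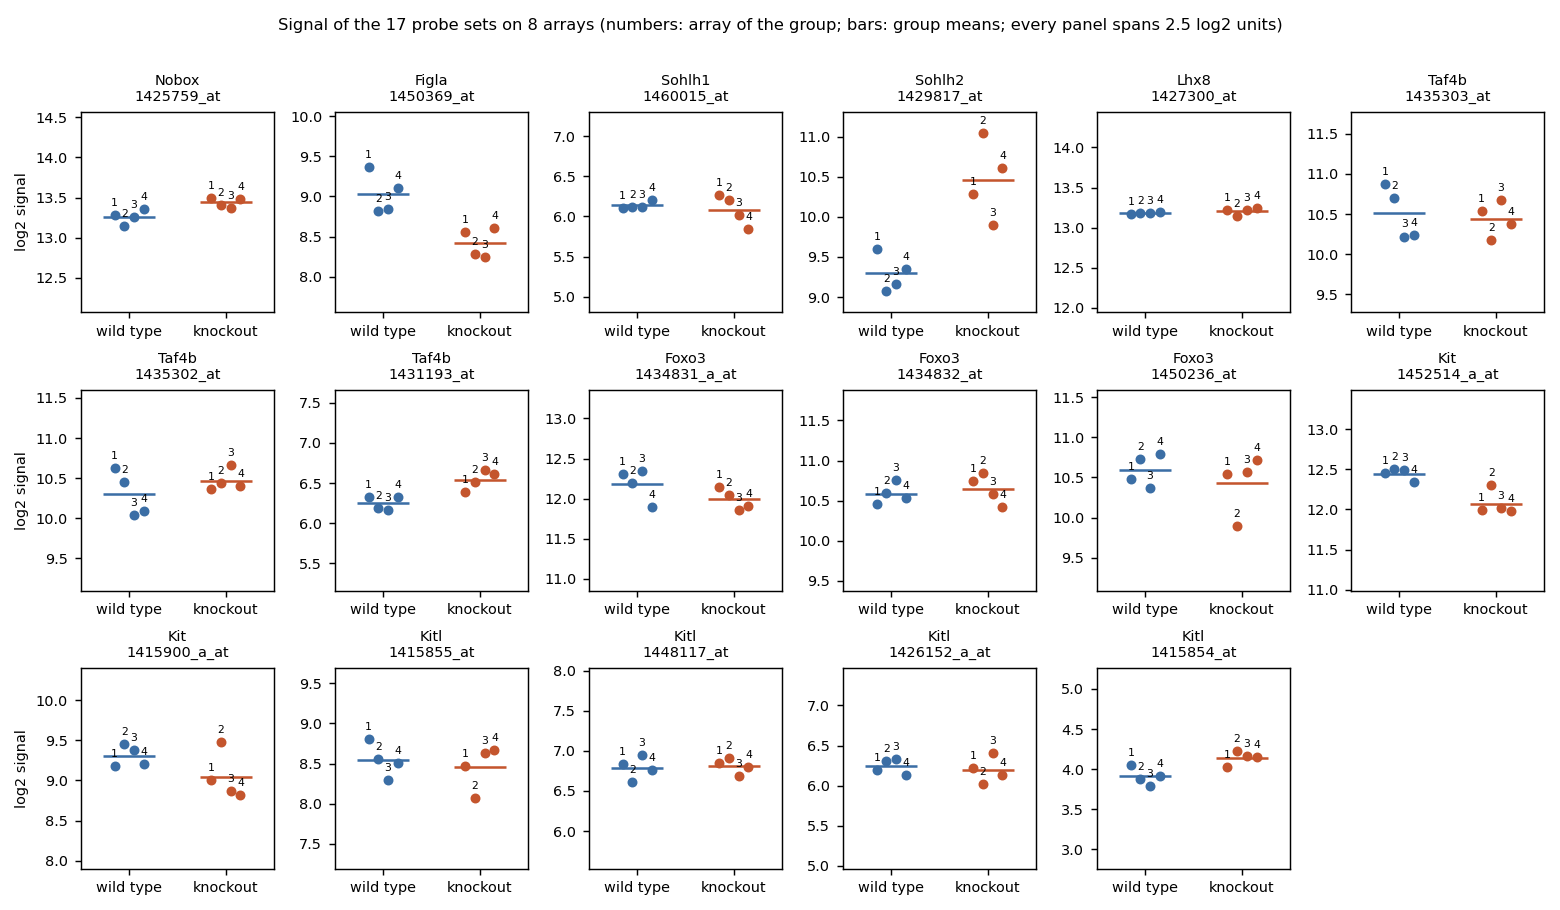
Log2 signal of each of the 17 probe sets on the 8 arrays, 1 panel per probe set, with wild type in blue and knockout in red, array numbers beside the points and bars at the group means. Sohlh2 is the clearest separation, with wild-type arrays at 9.07 to 9.60 and knockout arrays at 9.90 to 11.05, while Lhx8 stays between 13.15 and 13.24 on every array.

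Among the bHLH factors, Sohlh2 (probe set 1429817_at) showed the largest difference of the 17. It read 9.60, 9.07, 9.16 and 9.35 on wild-type arrays 1 to 4 and 10.29, 11.05, 9.90 and 10.61 on knockout arrays 1 to 4. The groups did not overlap, and the knockout arrays were spread more widely (SD 0.49 against 0.233). The means were 9.29 and 10.46, so that knockout exceeded wild type by 1.17 ± 0.223 log2 (SE), or 2.25-fold (95% interval 0.67 to 1.67 log2, adjusted p = 0.00647 in limma). The call held under all 18 alternatives, with adjusted p from 0.00269 to 0.022. Knockout array 2 was the highest, and without it the difference was 0.97 (adjusted p = 0.00866 in limma).

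Sohlh1 (1460015_at), the heterodimer partner of Sohlh2, did not pass. Its signal was 6.11, 6.12, 6.12 and 6.20 on the wild-type arrays, against 6.27, 6.21, 6.02 and 5.84 on the knockout arrays. The groups overlapped, all 8 values lay below the array medians, and no detection calls were used, so whether the transcript was present is not established. The difference was -0.0561 ± 0.0987 (SE, 95% interval -0.28 to 0.17, adjusted p = 0.768 in limma).

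Figla (1450369_at) fell. It read 9.37, 8.82, 8.84 and 9.11 on the wild-type arrays, against 8.56, 8.28, 8.24 and 8.60 on the knockout arrays. Every knockout array lay below every wild-type array, with 0.222 log2 between wild-type array 2 and knockout array 4. The means were 9.04 ± 0.259 and 8.42 ± 0.187 (SD, n = 4 and 4), a difference of -0.61 ± 0.14 (SE) log2, or 1.53-fold lower (adjusted p = 0.0153 in limma). Leaving out single arrays kept the call, with adjusted p between 0.0177 and 0.0468.

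The homeobox factors Nobox and Lhx8 did not pass the test. Nobox (1425759_at) read 13.28, 13.14, 13.26 and 13.36 on the wild-type arrays, against 13.50, 13.41, 13.37 and 13.48 on the knockout arrays. The groups did not overlap but lay close together, and the difference of 0.18 ± 0.0728 (SE) log2, or 1.13-fold, did not pass (95% interval 0.0168 to 0.34, adjusted p = 0.134 in limma). With cyclic loess scaling it passed (adjusted p = 0.036). Lhx8 (1427300_at) varied least, at 13.17 to 13.20 in wild type and 13.15 to 13.24 in knockout. Its difference was 0.0254 ± 0.0615 (95% interval -0.11 to 0.16, adjusted p = 0.837 in limma).

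Taf4b passed in 1 of its 3 probe sets. The dimmest (1431193_at) read 6.33, 6.19, 6.16 and 6.32 on the wild-type arrays, against 6.39, 6.51, 6.66 and 6.61 on the knockout arrays. The wild-type values all lay below the array medians. The difference in this probe set was 0.29 ± 0.0834 (SE) log2, or 1.23-fold (adjusted p = 0.04 in limma). The call ended with quantile (adjusted p = 0.059), median (0.0595) and cyclic loess scaling (0.0714), and without wild-type array 2, 3 or 4 or knockout array 2, 3 or 4 (0.0601 to 0.102). The brighter probe sets 1435303_at and 1435302_at differed by -0.0688 ± 0.166 and 0.17 ± 0.138 log2 (adjusted p = 0.837 and 0.482 in limma). In both, wild-type arrays 1 and 2 lay above wild-type arrays 3 and 4 (10.87 and 10.70 against 10.22 and 10.24 in 1435303_at), a spread wider than either difference.

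**Figure D2:**
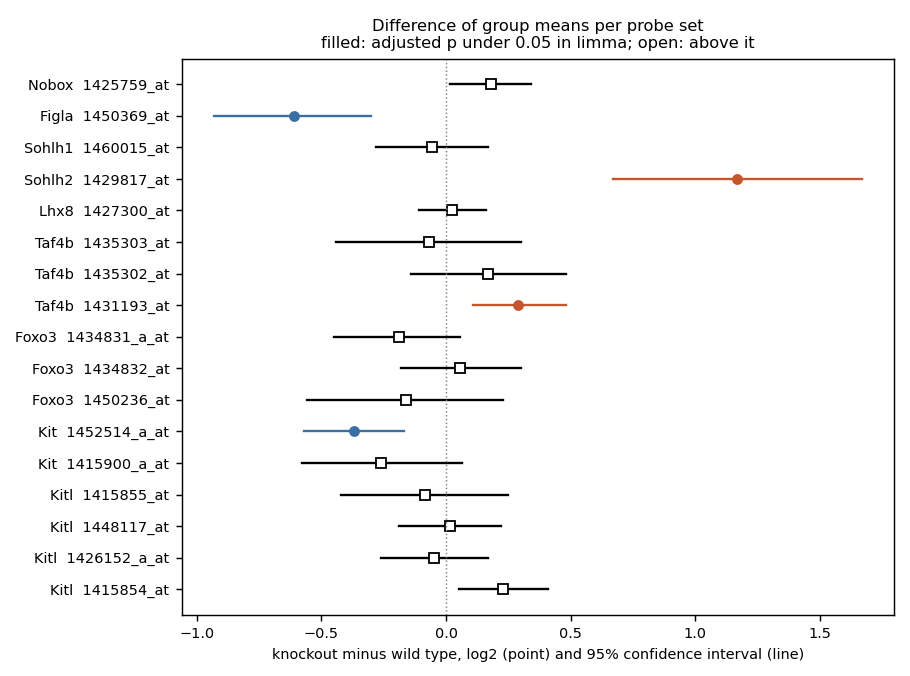
Knockout minus wild-type difference of group means on the log2 scale (point) with its 95% confidence interval from limma (line) for the 17 probe sets, filled where the adjusted p was under 0.05. Sohlh2 stands at 1.17 with an interval of 0.67 to 1.67, and the Kit and Figla points lie left of 0, while the Foxo3 intervals and those of 3 of the 4 Kitl probe sets cross it.

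Kit, the receptor, fell in its brighter probe set. Probe set 1452514_a_at read 12.45, 12.50, 12.49 and 12.34 on the wild-type arrays, against 11.99, 12.30, 12.02 and 11.98 on the knockout arrays. Every knockout value was below every wild-type value, but knockout array 2 came within 0.0357 log2 of wild-type array 4. The difference was -0.37 ± 0.0894 (SE) log2, or 1.29-fold lower (95% interval -0.57 to -0.17, adjusted p = 0.02 in limma). The call ended with cyclic loess scaling (adjusted p = 0.0627) and without wild-type array 2 (0.0562) or knockout array 1 (0.0557), 3 (0.0547) or 4 (0.0577). Without knockout array 2 the difference was -0.45 (adjusted p = 0.00579).

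The dimmer Kit probe set 1415900_a_at read 9.18, 9.45, 9.38 and 9.20 on the wild-type arrays, against 9.01, 9.48, 8.87 and 8.82 on the knockout arrays. Here 3 knockout arrays lay below every wild-type array and knockout array 2 lay above all of them. The difference of -0.26 ± 0.144 (SE) did not pass with all 8 arrays (adjusted p = 0.276 in limma), and without knockout array 2 it did (-0.41, adjusted p = 0.0261). Both Kit probe sets thus had knockout array 2 as their highest knockout array. The same array was the highest knockout array for Sohlh2, and the lowest for Foxo3 probe set 1450236_at (9.89 against 10.54 to 10.72) and for the brightest Kitl probe set (8.07 against 8.47 to 8.67).

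Kitl, the ligand, did not pass in any of its 4 probe sets. The brightest (1415855_at) read 8.81, 8.56, 8.30 and 8.51 on the wild-type arrays, against 8.47, 8.07, 8.63 and 8.67 on the knockout arrays, and the groups overlapped. Its difference was -0.0857 ± 0.149 (SE, 95% interval -0.42 to 0.25, adjusted p = 0.765 in limma). Probe sets 1448117_at and 1426152_a_at ranged from 6.61 to 6.95 and from 6.02 to 6.41 over the 8 arrays, with differences of 0.0166 and -0.0474. The dimmest (1415854_at) was at 3.79 to 4.05 in wild type and 4.03 to 4.23 in knockout, a difference of 0.23 ± 0.0798 (adjusted p = 0.0848 in limma).

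Of 14 measured cumulus and granulosa markers, the cells that make Kitl, 6 fell and 0 rose by limma, where 8 were lower and 0 higher at an unadjusted p under 0.05, and all 14 differences were below 0 (-1.57 to -0.00938 log2). Among genes by their brightest probe set, 21% passed, 8.18% higher and 12.8% lower. Cyp11a1, the first enzyme of steroid synthesis, fell by 1.57 log2 (adjusted p = 0.0101 in limma), although another of its 3 probe sets passed in the opposite direction. Fshr, the FSH receptor, fell by 0.50 log2 (adjusted p = 0.0182). Gja1, Inha and Inhba, given after their values were seen, were the brightest of the 14 (wild-type means 11.51, 10.91 and 10.50 log2). The groups overlapped in each of them, and Gja1 and Inha passed as lower while Inhba did not pass. The summed linear signal of the 14, in which these genes weigh most, was 6724 to 11451 in wild type and 4566 to 6146 in knockout. Its part in the Kit and Figla results was not tested, and fewer attached cells and less RNA per cell cannot be told apart. Mast cells also carry Kit. Of 9 measured mast cell and blood markers, Cd68, a macrophage gene, and Tpsb2, a mast cell tryptase, rose (1.16 and 0.36 log2) and 0 fell (0 also at an unadjusted p under 0.05 in limma). The other Tpsb2 probe set differed by -0.0133, and the mast cell genes Cpa3, Cma1, Mcpt4 and Fcer1a, given after their values were seen, differed by 0.0707, 0.0664, 0.13 and 0.00378 and did not pass. The other blood cell genes of the list, Ptprc, Tyrobp and Hba-a1, also given after their values were seen, did not pass. They differed by -0.0349, 0.0299 and -0.0431 log2. The summed signal of the 9 was 490 to 523 in wild type and 668 to 709 in knockout, and Cd68 had the largest difference among them. In theca, stroma and vessel markers, Tek and Kdr of 8 measured genes fell (-0.78 and -0.54 log2), and 0 rose (0 also at an unadjusted p under 0.05 in limma). The vessel genes Pecam1 and Cdh5, given with the rest of this list after their values were seen, differed by -0.32 and -0.0626 and did not pass. Cyp17a1 and Col3a1 (-0.23 and -0.11) and Col1a1 and Pdgfra (0.0798 and 0.0841) did not pass either. The summed signal of the 8 was 1143 to 1289 in wild type and 848 to 922 in knockout, and Tek and Kdr had the largest differences among them.

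**Figure D3:**
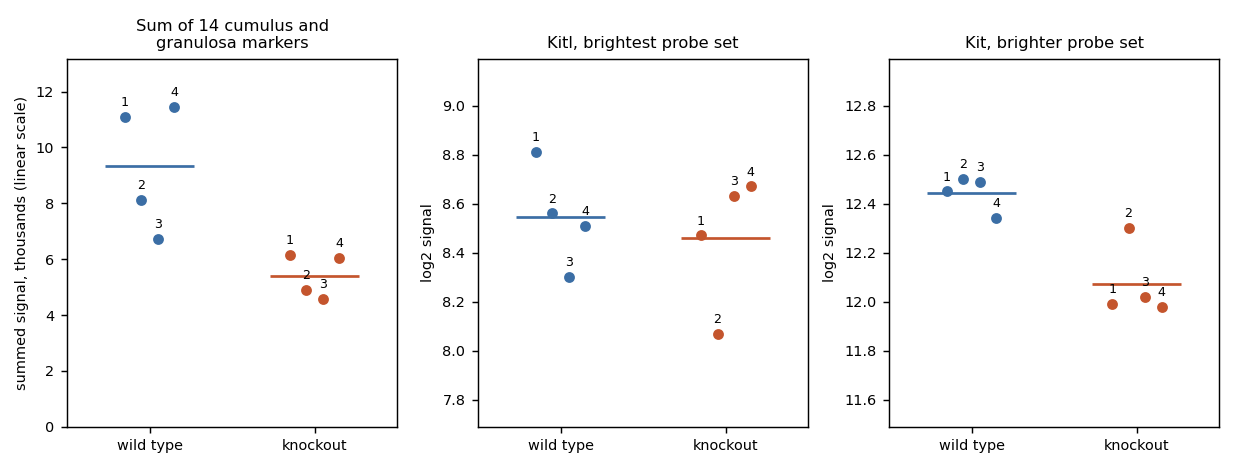
Summed linear signal of 14 cumulus and granulosa markers (left, linear axis from 0, divided by 1000), log2 signal of the brightest Kitl probe set (middle) and of the brighter Kit probe set (right) on each of the 8 arrays, with bars at the group means. The marker sum is 6724 to 11451 in wild type and 4566 to 6146 in knockout, Kitl overlaps between groups, and the Kit values of knockout arrays 1, 3 and 4 lie between 11.98 and 12.02.

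Foxo3, which Kit signalling restrains, did not pass in any of 3 probe sets. The brightest (1434831_a_at) read 12.31, 12.19, 12.35 and 11.89 on the wild-type arrays, against 12.14, 12.05, 11.86 and 11.91 on the knockout arrays. Wild-type array 4 lay among the knockout arrays. Its difference was -0.19 ± 0.113 (SE, 95% interval -0.45 to 0.0577, adjusted p = 0.3 in limma). Probe sets 1434832_at and 1450236_at differed by 0.0571 ± 0.107 and -0.16 ± 0.177 (adjusted p = 0.784 and 0.605 in limma).

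The genes of the Kit receptor signalling list that passed did so in both directions, at a share near that of all genes. Of 27 measured genes of Kit receptor signalling, 2 rose and 3 fell (18.5%, against 21% of all genes), and the list median was -0.0752 against 0.00267. Pik3r1, a regulatory subunit of PI3K, fell from 12.46 ± 0.0462 to 11.96 ± 0.161 (SD, n = 4 and 4), a change of -0.50 log2 (adjusted p = 0.00448 in limma). Pdpk1, the kinase that activates Akt, fell by 0.43 log2 (adjusted p = 0.00266), in 1 of its 2 probe sets. Mtor, named after its values were seen to complete the count, fell by 0.43 log2 in 1 of its 3 probe sets. Shc1 and Sos1, adaptor and exchange factor between receptors and Ras, rose by 0.46 and 0.77 log2 (adjusted p = 0.00532 and 0.031). The other Shc1 probe set differed by -0.18, and 1 of the 4 other Sos1 probe sets passed in the same direction. Sos1 lost the call without wild-type array 2, 3 or 4 or knockout array 1, 3 or 4 (adjusted p up to 0.0841), and with the title number as a fixed block (0.72 log2, adjusted p = 0.367 in limma).

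Of 15 Foxo target genes, 3 rose and 2 fell (33.3%, against 21% of all genes). The list median was -0.12, against 0.00267 for all genes. Klf2, a zinc finger factor, rose 7.94-fold, with a wild-type mean of 7.33 ± 0.787 and a knockout mean of 10.32 ± 0.308 (SD of 4 arrays, adjusted p = 0.000383 in limma). Gadd45a, a stress-induced growth arrest gene, rose 1.94-fold. Bcl2l11, which encodes the death protein Bim, fell by 0.70 log2 (adjusted p = 0.00187) and Sesn1, a sestrin, by 1.06 log2 (adjusted p = 0.0048). Irs2, named after its values were seen, rose by 0.29 log2. All of its values (5.71 to 5.88 in wild type, 5.97 to 6.21 in knockout) lay below the array medians.

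Genes reported to need Nobox, Figla or Lhx8 fell slightly or did not pass. Of 14, 0 rose and 3 fell (21.4%, against 21% of all genes) by limma, and the median was -0.0438. Mos, a kinase of meiotic arrest, fell by 0.36 log2 (adjusted p = 0.00781), Zar1, a maternal RNA-binding protein, by 0.35 (adjusted p = 0.00839) and H1f8, the oocyte linker histone, by 0.37 (adjusted p = 0.0113). With the title number as a fixed block, Mos, Zar1 and H1f8 lost their calls (adjusted p = 0.316, 0.268 and 0.224 in limma). The differences of the 14 ranged from -0.39 to 0.11. At an unadjusted p under 0.05, 0 were higher.

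Partners of these factors included the largest difference of any named list gene. Of 10 bHLH and LIM partners 1 rose and 1 fell by their brightest probe sets (20%, against 21% of all genes). Tcf12 and Id4 did not pass by theirs, but 1 other Tcf12 probe set passed as higher and 1 other Id4 probe set as lower. Ldb2, a cofactor of LIM-homeobox proteins such as Lhx8, rose 9.83-fold, from a wild-type mean of 7.65 ± 0.706 to 10.94 ± 0.175 (SD of 4 arrays, adjusted p = 0.000103 in limma), and its 2 other probe sets passed in the same direction. Tcf4, an E protein of the kind that pairs with class II bHLH factors, fell from 7.51 ± 0.812 to 6.21 ± 0.239 (-1.30 log2, adjusted p = 0.0288), with 3 of its 5 other probe sets passing in the same direction. With the number in the sample titles as a fixed block, described further on, the Tcf4 difference was -0.56 (adjusted p = 0.06 in limma). The call also ended with a trended and robust variance model, and without wild-type array 3 or 4 or knockout array 1, 3 or 4 (adjusted p up to 0.0725). A list of further factors combined with Nobox, Figla, Sohlh1 and Lhx8 to turn stem cells into oocyte-like cells had 3 measured genes. Stat3 rose 3.23-fold (11.23 ± 0.251 to 12.92 ± 0.141, adjusted p = 4.34e-05 in limma) and Dynll1 1.42-fold (adjusted p = 0.00653). Sub1, given after its values were seen, differed by -0.15 log2 and did not pass.

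In TFIID and the TBP family, the surroundings of Taf4b, 1 of 18 measured genes rose and 1 fell (11.1%, against 21% of all genes). The median was -0.0583. Tbpl1, a TBP-related factor, rose 2.09-fold (9.45 ± 0.392 to 10.51 ± 0.526, SD of 4 arrays each, adjusted p = 0.0236 in limma), and its other probe set rose by 0.84 log2. The Tbpl1 call ended without wild-type array 1 or 2 or knockout array 1 or 4 (adjusted p up to 0.0644), and with the title number as a fixed block (1.45 log2, adjusted p = 0.0579 in limma). Taf2 fell by 0.38 log2 (adjusted p = 0.013) in 1 of its 2 probe sets. Of 14 measured genes of early meiotic prophase, 3 rose and 0 fell by limma (21.4%, against 21% of all genes). Stag3, a meiotic cohesin subunit, rose 2.37-fold, Sycp1, of the synaptonemal complex, 1.91-fold, and the helicase gene Ddx4 1.86-fold (adjusted p = 0.000568, 0.000604 and 0.0324). The Ddx4 groups overlapped, and its call ended without wild-type array 2, 3 or 4 or knockout array 1, 3 or 4 (adjusted p up to 0.0892). With the title number as a fixed block the Ddx4 difference was 0.37 log2 (adjusted p = 0.586 in limma). The list median was 0.21, and at an unadjusted p under 0.05, 0 were lower.

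**Figure D4:**
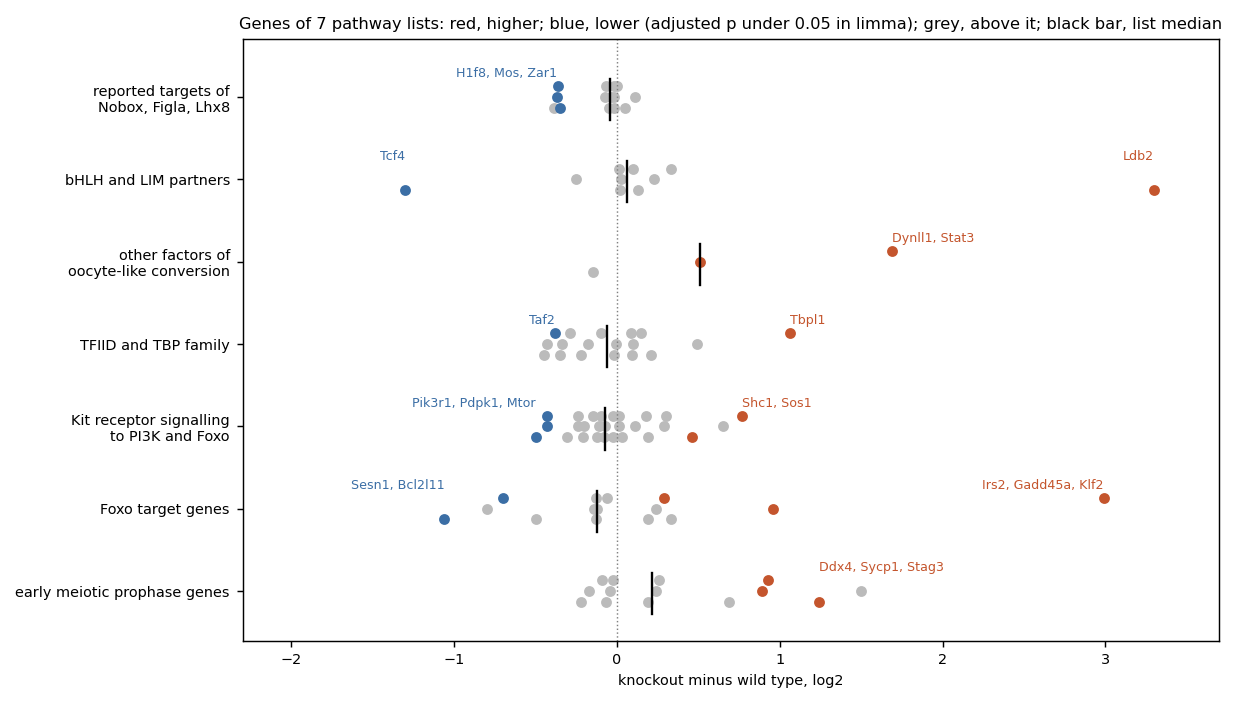
Knockout minus wild-type log2 difference of each gene of the 7 pathway lists by its brightest probe set, coloured where the adjusted p in limma was under 0.05, with black bars at the list medians. Ldb2 (3.30), Klf2 (2.99) and Stat3 (1.69) lie farthest to the right.

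The 2 arrays that share the title number 24 and the 2 that share 27 each pair 1 wild-type and 1 knockout mouse, though the labels do not say what the number means. Within them Sohlh2 was higher in knockout by 1.45 and 1.54 log2. Figla differed by -1.09 within number 24 and -0.22 within number 27. The brighter Kit probe set differed by -0.15 and -0.52, and the dimmer one by 0.30 and -0.63. With this number as a fixed block Sohlh2 kept its call (adjusted p = 0.00713 in limma). Figla (-0.66, adjusted p = 0.202), the brighter Kit probe set (-0.34, 0.286) and the dimmest Taf4b probe set (0.30, 0.303) lost theirs in limma, with differences close to the -0.61, -0.37 and 0.29 found without the block. Of the 26 named list genes that passed, 8 still passed with it, namely Cd68, Gadd45a, Klf2, Ldb2, Pik3r1, Stag3, Stat3 and Sycp1. The others of these 26 lost their calls with it. List genes named only after their values were seen are not among the 26.

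Over the 8 arrays, the genes whose profile was most like that of Sohlh2 were Pde5a, a cyclic GMP phosphodiesterase (r = 0.979), and Gpr20, an orphan receptor (0.976). Mrpl57 and Cog7 were most like Figla (0.989 and 0.988), Gdf9 and Ntpcr most like Kit (0.979 and 0.974), and Klk1b8 and Sp5 most like the dimmest Taf4b probe set (0.984 and 0.968). These correlations are Pearson's, over 8 arrays that all share the group contrast, and are given as a description. Pde5a rose by 2.44 log2 and Gpr20 by 1.34. Gdf9, an oocyte growth factor, varied only between 14.55 and 14.65 over the 8 arrays. Its difference of -0.0682 did not pass (adjusted p = 0.515 in limma).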

How the data were processed

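Log2 signals of 8 Affymetrix mouse genome arrays were used as deposited by the authors. RMA and Partek are named in the submitters' processing notes, and of neither is a version given. The former subtracts background, quantile-scales arrays and fits 1 value per probe set, which compresses differences of dim probe sets, and the labels' protocols state a linear amplification of the RNA before labelling. Probe sets (45037, without 64 controls) were named from the platform annotation (34945 with 1 symbol, 932 with several, 9160 with none listed), and all 9 members matched the RefSeq table. The matrix had 0 missing values and 0 columns of other samples.

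limma 3.58.1 in R 4.3.3 (lmFit, eBayes, knockout minus wild type) was fitted on all probe sets with Benjamini-Hochberg adjustment, and adjusted p under 0.05 passed. The fit was tested on simulated data with changes added to some probe sets. It recovered 43.4% of changes of 0.5 log2, 88.1% of 1 log2 and 96.9% of 2 log2. Only 158 probe sets were called there, 10 of them falsely, so these shares need not hold for the real arrays. A list gene was represented by its brightest probe set on average. Named list genes are the 2 with the lowest p in each direction that passed. For each member that passed, the 2 genes with the highest Pearson r to it were named, leaving out predicted and clone names. Single values had exact permutation tests over 70 arrangements. The members and lists were chosen with earlier results of these data known. Alternatives were scaling, a filter at a mean signal of 6, other variance models, array weights, the title number as a block, other probe set choices and leaving out each array.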

Additional observations from a re-analysis of the deposited data

Results flagged for a closer look

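In 94 groups of 4 arrays (members, named list genes and marker sums), 1 array lay far from the other 3 in 6 groups, by a gap relative to the range above 0.829, where chance gives about 4.7. Knockout array 2 was high for Kit 1452514_a_at, at 12.30 against 11.98 to 12.02. It was low for Ddx4, at 10.30 against 10.96 to 11.03. Wild-type array 4 was high for Sohlh1, at 6.20 against 6.11 to 6.12. Pik3r1 read 12.20 on knockout array 3 against 11.86 to 11.89 on the other knockout arrays. On wild-type array 3, Tpsb2 read 6.48 against 6.38 to 6.39 and Sycp1 read 7.22 against 7.50 to 7.55.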

How the results depend on the processing

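Of the 18 alternatives, 8 left out 1 array each and 10 changed another choice. Of the member probe sets, 1 instead of 2 was higher in knockout with quantile scaling, with median scaling, with the title number as a fixed block and with 1 representative probe set per gene, and the count was 1 to 2 when single arrays were left out. The number lower was 1 with cyclic loess, 0 with the fixed block (limma, 2 at an unadjusted p under 0.05) and 1 to 3 without single arrays. Of 101 pathway list genes, 12 were higher and 10 lower with all arrays, 7 and 1 with the fixed block, and 8 to 12 and 9 to 13 without single arrays. The fixed block also cut the calls over all probe sets from 3072 and 4192 to 969 and 1222, and the cause was not tested. As a random block the same number had a correlation of -0.0778 and left the member counts at 2 and 2. The labels give no replicate numbers and do not say what the title number means. It is shared by a wild-type and a knockout mouse in 2 cases (24 and 27), on which the fixed block fit rests, and no pairing of all mice could be made. Of 26 named list genes that passed, 8 kept the call under every alternative that gave them a value and 13 lost it under the fixed block alone.

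Signs turned only in probe sets that did not pass. With the fixed block Taf4b 1435302_at was at -0.12. With cyclic loess Taf4b 1435303_at was at 0.0249 and Kitl 1448117_at at -0.000247. Kitl 1448117_at was at -0.000923 with quantile scaling and -0.0126 with median scaling, where Lhx8 was at -0.0038. Without single arrays, Sohlh1 ranged from -0.12 to 0.0252, Taf4b 1435303_at from -0.17 to 0.0511, Foxo3 1434832_at from -0.00774 to 0.13 and Foxo3 1450236_at from -0.26 to 0.017. Kitl 1415855_at ranged from -0.17 to 0.0449, Kitl 1448117_at from -0.0425 to 0.0711 and Kitl 1426152_a_at from -0.12 to 0.00997. The number of arrays limits the precision.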
